A study of Homo sapiens with 24 samples.

Results

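Knock-out lines of the same parent were set against each other: HCT116 KO44 and HCT116 KO47, each profiled by RNA-seq in 2 libraries, so that 4 of the 24 libraries of the series carried the comparison. HCT116 is a human colorectal cancer cell line. In both lines the CTNNB1 gene, which encodes β-CATENIN, had been inactivated on both alleles by CRISPR/Cas9 with a pair of guide RNAs that removed exon 7 and shifted the reading frame. Single cells were then sorted and expanded, so every line is 1 clone. HCT116 WT4 and WT6, also clonal lines but with intact CTNNB1, gave 4 further libraries that served as the level of reference. The libraries of a clone came from experimental rounds A and B, and no treatment was given. Because each clone is 1 line, the p-values below measure the spread between rounds within a clone, and an effect of the clone cannot be told apart from an effect of its single-cell origin. The question addressed was how far apart 2 clones with the same genotype lay across 15614 tested genes of 58051 listed.

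β-CATENIN has separate roles in WNT signalling and in cell adhesion. When WNT ligands bind Frizzled receptors, β-CATENIN escapes degradation, enters the nucleus and joins TCF/LEF factors at target genes such as AXIN2, RNF43 and MYC. At the membrane it links cadherins to the cytoskeleton, where plakoglobin (JUP) is its closest relative. HCT116 cells carry a stabilising mutation of CTNNB1, and the pathway is active in the parent line without added ligand.

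The deleted exon lies in CTNNB1 on chromosome 3, at chr3:41268699-41268843 on the plus strand of GRCh37. It is 145 bases long, which leaves a remainder of 1 after division by 3, and its reference sequence is shown because its loss defines both knock-out lines.
CTNNB1 exon 7: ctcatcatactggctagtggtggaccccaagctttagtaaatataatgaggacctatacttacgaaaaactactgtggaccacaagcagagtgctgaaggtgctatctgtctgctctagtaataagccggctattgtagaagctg

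CTNNB1 transcript levels were low in both knock-out clones. Values here are read counts divided by a size factor of each library. KO44 had 187 and 222 in rounds A and B, KO47 had 207 and 255, and the 4 WT libraries had 10512 to 12800. The clone means were 1.72% and 1.94% of the WT mean of 11918 ± 999.9 (SD, n = 4). The KO libraries overlapped each other and lay far below all WT libraries. The difference between KO44 and KO47 was -0.17 on the log2 scale (SE 0.14, limma adjusted p = 0.529), with a 95% interval of -0.49 to 0.15.

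One library stood apart. The 8 HCT116 libraries held 25012505 to 29068378 reads assigned to genes, and 7 of them had a read on 22620 to 23323 genes. KO47 A, the shallowest, had a read on 35449 genes. Of 25296 genes without a read in any of the other 7 libraries, 9053 (35.8%) had reads in KO47 A, with at most 34 on a gene. Per kilobase of exon this was 0.726 reads, against 0.0246 to 0.0551 in each of the other libraries measured the same way. The reads lay on all autosomes, from 0.553 per exonic kilobase on chromosome 22 to 0.919 on chromosome 4. The 37 mitochondrial genes had no read in any of the 8 HCT116 libraries, so they say nothing about these reads. At this density a tested gene of median exonic length would receive 3.46 reads, and in 1831 tested genes the expected reads exceeded 10% of those in KO47 A. Among these 1831 were 115 of the called genes, 76 higher in KO44 and 39 higher in KO47. The part of these reads in the results was not tested, and counts without KO47 A are given where they moved most.

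The clones differed at 540 of 15614 genes, 3.46% of those tested, by adjusted p under 0.05 and a difference over 1 on the log2 scale (limma on log2 of the value plus 1, Benjamini-Hochberg adjustment). KO44 was higher at 274 genes (1.75%) and KO47 at 266 (1.7%), so the calls were split nearly evenly. By adjusted p alone 1142 genes (7.31%) differed. Among the 540 the median absolute difference was 1.64, with 184 genes over 2, 87 over 3 and 21 over 5. All 540 had libraries that did not overlap between the clones, which also held for 50.6% of all tested genes. Protein-coding genes made up 477 of the 540 and lncRNAs 33. With the round as a block the count was 765, including all 540. Without KO47 A it was 671, of which 424 were among the 540, and the split was then 394 higher in KO44 and 277 higher in KO47. Without KO44 A it was 357 and without KO44 B 355.

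The WT clones gave a scale for the distance between clones with intact CTNNB1. WT4 and WT6 differed at 230 of 15535 genes (1.48%) by the same rule, with 119 higher in WT4 (0.766%) and 111 higher in WT6 (0.715%), and at 438 with the round as a block. The count was 113 without WT4 A, 138 without WT4 B, 122 without WT6 A and 91 without WT6 B. The spread between rounds of 1 clone, as the SD of log2 differences over genes, was 0.415 in KO44, 0.546 in KO47, 0.418 in WT4 and 0.445 in WT6. Whether the KO pair lay further apart than the WT pair was not tested, since there is 1 pair of each kind.

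**Figure D1:**
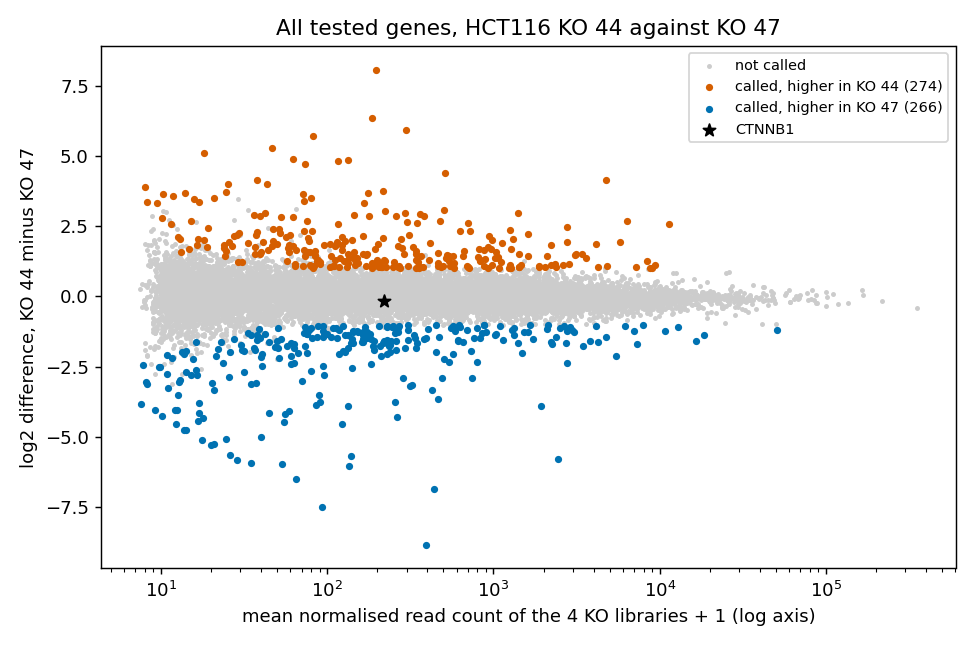
Difference between KO44 and KO47 (log2, y axis) against the mean level of the gene over the 4 KO libraries (x axis) for 15614 genes. The 274 genes called higher in KO44 and the 266 called higher in KO47 are marked.

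Among well-expressed genes, MGMT had the largest difference in favour of KO44. MGMT, at chr10:131265454-131569247 (GRCh37), encodes the enzyme that removes alkyl groups from guanine in DNA. Its values were 455 and 326 in KO44 and 1.07 and 0 in KO47, against 161 to 359.6 in the WT libraries. The difference was 8.07 (SE 0.36, adjusted p = 1.52e-06). In reads, KO47 had 1 and 0 and KO44 463 and 346, a ratio of 772 with an exact 95% counting interval of 138 to 30543. KO44 thus overlapped the WT libraries at their upper end, and KO47 was near 0.

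IL32, a proinflammatory cytokine at chr16:3115298-3132193, was 408 and 327 in KO44 and 3.21 and 3.81 in KO47, a difference of 6.35 (SE 0.32). The WT clones were split in the same manner, with 577 and 467 in WT4 and 1.85 and 0.952 in WT6. Both a KO and a WT clone therefore carried the high level, and the other of each pair the low level.

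WNT7A, a WNT ligand, was high in KO44 with 995 and 959 against 62.1 and 33.3 in KO47, while the WT libraries had 0 to 6.66. S100A4, a calcium-binding protein associated with cell motility, reached 9299.8 and 8614 in KO44 and 484 and 523 in KO47, and the WT libraries had 1007 to 2040.2. The difference was 4.15 on the log2 scale, with a 95% interval of 3.77 to 4.53. WNT7A was above WT in both clones, whereas S100A4 was above WT in KO44 and below it in KO47.

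LCN2, which binds iron-carrying siderophores, was 263 and 252 in KO44 and 9.63 and 6.66 in KO47, near the 4.64 to 7.62 of the WT libraries. LIPG, the endothelial lipase, was 289.9 and 352 against 37.5 and 15.2, with WT at 31.6 to 40. SMAD6, an inhibitor of BMP signalling, was 502 and 539.8 against 78.1 and 55.2, with WT at 57.1 to 78.9. For these 3 genes both KO44 libraries exceeded all WT libraries, and KO47 was close to them. CTSH, a lysosomal protease, was 933 and 867 in KO44 and 121 and 90.4 in KO47, on either side of the WT values of 279.9 to 367. GDF15, a stress-induced cytokine, was 2199 and 2794 in KO44 and 313 and 326 in KO47, and the WT clones were again unequal, at 1553 and 2161 in WT4 and 403 and 518 in WT6.

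Of the remaining genes with the largest differences in this direction, most were above WT in KO44. TM4SF18, a tetraspan membrane protein, was 255 and 189 in KO44 and 15 and 2.85 in KO47, with 0 to 5.5 in WT, and C11orf86 was 308 and 294 against 22.5 and 37.1, with 0 to 2.86 in WT. Both lost the call without KO44 A or KO44 B. CCDC9B, at 608 and 665 against 89.9 and 77.1, and SYT12, a synaptotagmin, at 426 and 362 against 46 and 48.5, were likewise above WT (13.3 to 35.3 and 23.8 to 40.4) in both clones. NALF2 was 413 and 392 in KO44, among the WT libraries at 335 to 497, and 37.5 and 22.8 in KO47. It was thus the mirror image of LIPG, with KO47 as the clone away from WT.

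Differences in favour of KO47 included several genes that were nearly absent from KO44. DPEP1, a membrane dipeptidase at chr16:89679716-89704864, was 1.97 and 0 in KO44 and 856 and 709 in KO47, and the WT libraries had 641 to 855. Its difference was -8.82 (SE 0.40, adjusted p = 1.53e-06). The reads were 2 and 0 against 800 and 745, a ratio of 809 with an exact counting interval of 224 to 6688. KO47 was at the WT level and KO44 near 0, the converse of MGMT.

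PCDH7, a protocadherin at chr4:30721991-31148427, was 4.91 and 7.54 in KO44 and 581 and 1147 in KO47. The WT libraries had 2172 to 3757, above both clones. PDE4B, a phosphodiesterase that degrades cyclic AMP, had the same order, with 9.83 and 8.48 in KO44, 204 and 265 in KO47 and 2741 to 4136 in WT. TMEM200A was 24.6 and 24.5 in KO44 and 482 and 512 in KO47, below the WT libraries at 1440.4 to 3608. These 3 genes were below WT in both clones and by far the lowest in KO44.

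ANXA10, an annexin at chr4:169013688-169108887, was 81.6 and 88.5 in KO44 and 5009 and 4566 in KO47, with WT at 2763 to 3523. ANGPT2, a ligand of the TEK receptor, was 3.93 and 1.88 in KO44 and 158 and 371 in KO47, with WT at 97.2 to 209. MMP1, an interstitial collagenase, was 4.91 and 3.77 in KO44 and 297 and 245 in KO47, whereas no WT library exceeded 0.928. LMO7, a protein of cell junctions, was 248 and 224 in KO44 and 2605 and 4679.8 in KO47, with WT at 216 to 423. MMP1 and LMO7 therefore left the WT level upward in KO47, by folds of 50.9 and 14.8 over KO44. DIO3, which inactivates thyroid hormone, was 24.6 and 9.42 against 187 and 306, with WT at 19.5 to 37.

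ANTXR2, a receptor for anthrax toxin, was 189 and 159 in KO44 and 1423 and 1199 in KO47, with WT at 171 to 248. CPM, a membrane carboxypeptidase, was 147 and 85.7 against 1038 and 691, with WT at 93.7 to 284. In both, KO47 alone was above WT. SYTL5, a synaptotagmin-like protein, was 55 and 65 in KO44 and 439.9 and 694 in KO47, with at most 6.42 in WT, and lost its call without KO44 A, KO44 B or KO47 B. SCML1 was 72.7 and 58.4 against 529.9 and 633, outside the WT values of 110.4 to 347 on either side. ARL14EPL was 45.2 and 122 in KO44 and 652 and 892 in KO47, with 156 and 217 in WT4 and 542 and 680.1 in WT6.

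A gene was counted as nearly silent in a clone when it was called and had at most 3 reads over the clone's 2 libraries. KO44 had 28 such genes, 13 of them without a read, and KO47 had 10, 2 of them without a read. In KO47, the reads of library A on otherwise silent genes work against such a count, so the 2 numbers cannot be compared directly. Against a floor of 3 reads over the clone, ZNF595 (no read in KO44, 140 and 229 in KO47) was at least 129-fold lower in KO44. By the same floor SFMBT2 was at least 47.8-fold lower, LINC00960 at least 34.2-fold, BMP2 at least 15.7-fold and PGBD5 at least 12.6-fold. TIMP3, an inhibitor of matrix metalloproteases, had 1 and 0 reads in KO44 and 35 and 59 in KO47, a ratio of 98.5 (17.2 to 3930).

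In 11 of these genes every library of the other clone and of WT had at least 10 reads, so that 1 clone alone lacked the transcript. KO44 accounted for 10 of them, among them DPEP1, ZNF595, TIMP3, BMP2 and PGBD5, and KO47 for 1, MGMT. Promoters of 8 of the 11 were in the RefSeq table for GRCh38.p14. They are described by their CG dinucleotides, the site at which human DNA is mostly methylated, and methylation was not measured here. The windows of 300 bases, printed with CG in capitals, run from 250 bases before to 50 after the start and are shown for the gene lacking in KO47 and for 3 lacking in KO44.
MGMT, chr10:129466991-129467290, plus strand: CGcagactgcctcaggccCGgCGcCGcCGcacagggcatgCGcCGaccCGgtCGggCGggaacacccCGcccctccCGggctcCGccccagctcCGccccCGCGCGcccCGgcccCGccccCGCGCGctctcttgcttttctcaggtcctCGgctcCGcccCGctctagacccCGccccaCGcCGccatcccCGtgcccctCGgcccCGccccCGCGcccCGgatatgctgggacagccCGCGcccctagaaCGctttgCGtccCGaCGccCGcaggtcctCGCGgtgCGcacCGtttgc
TIMP3, chr22:32801455-32801754, plus strand: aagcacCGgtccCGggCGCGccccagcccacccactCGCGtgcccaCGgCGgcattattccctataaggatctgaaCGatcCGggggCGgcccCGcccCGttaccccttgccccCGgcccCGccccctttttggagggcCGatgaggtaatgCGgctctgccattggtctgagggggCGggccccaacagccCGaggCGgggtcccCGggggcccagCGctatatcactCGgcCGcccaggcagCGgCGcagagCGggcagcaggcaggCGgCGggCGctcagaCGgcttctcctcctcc
ZNF595, chr4:53071-53370, plus strand: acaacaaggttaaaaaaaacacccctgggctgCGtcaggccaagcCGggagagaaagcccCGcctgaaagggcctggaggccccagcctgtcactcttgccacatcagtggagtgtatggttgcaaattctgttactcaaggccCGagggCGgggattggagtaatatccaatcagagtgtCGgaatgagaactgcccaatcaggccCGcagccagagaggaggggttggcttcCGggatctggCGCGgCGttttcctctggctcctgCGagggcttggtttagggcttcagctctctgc
PGBD5, chr1:230426283-230426582, minus strand: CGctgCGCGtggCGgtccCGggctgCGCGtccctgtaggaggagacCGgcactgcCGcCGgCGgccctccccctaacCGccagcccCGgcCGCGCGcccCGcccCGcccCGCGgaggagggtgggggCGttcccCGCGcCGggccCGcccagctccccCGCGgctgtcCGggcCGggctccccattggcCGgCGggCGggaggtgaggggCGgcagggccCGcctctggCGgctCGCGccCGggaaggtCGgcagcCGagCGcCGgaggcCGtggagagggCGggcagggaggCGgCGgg
MGMT had 45 CG, TIMP3 31, ZNF595 12 and PGBD5 46, against a median of 14 over 35093 promoters in the table. The other genes of the 8 had fewer than TIMP3, with 3 to 15 in the 4 windows of DPEP1, 3 in TTN, 14 in BDKRB2 and 15 and 22 in LINC00960, so the 8 had no common CG content. As many or more were found in 3.48% of promoters for MGMT, 20.6% for TIMP3, 53.1% for ZNF595 and 2.89% for PGBD5. CTTTGAT, a core of the TCF/LEF binding motif, was absent from these 4 windows on both strands and was present in 2.62% of all promoters.

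At the other end, 21 called genes had at most 3 reads in each WT library, 8 of them higher in KO44 and 13 higher in KO47. CEACAM6, a cell adhesion molecule of the carcinoembryonic antigen family, was 0.983 and 0 in KO44 and 142 and 113 in KO47, while no WT library exceeded 1.86. MMP10, a stromelysin, was 0 and 1.88 in KO44 and 95.3 and 112 in KO47. CHST4, a sulfotransferase, was 69.8 and 70.6 in KO44 and 3.21 and 2.85 in KO47, with at most 0.917 in WT. Each was thus present in 1 knock-out clone at levels not found in WT4 or WT6.

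The WT libraries allowed each called gene to be placed. The mean of KO44 lay within the range of the 4 WT libraries at 85 of 540 genes (15.7%), and that of KO47 at 175 (32.4%), against 41.7% and 48.8% of all tested genes. The clones lay outside the range on opposite sides at 144 genes (26.7%), against 719 of all tested genes (4.60%), and on the same side at 145 (26.9%, against 32.5%). Among the 274 genes higher in KO44, KO44 was above WT with KO47 within at 90, the clones were on opposite sides at 73 and both were above at 63. Among the 266 higher in KO47, KO44 was below WT with KO47 within at 76, the clones were on opposite sides at 71, and KO47 was above with KO44 within at 49. These counts describe the called genes, which were chosen by the difference between the clones, and the WT range rests on 2 clones.

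The gene lists were chosen with earlier results of these data known. Over all lists 68 of 583 different members tested (11.7%) were called, and the share of each list is to be read beside that too. Of 32 target and feedback genes of the WNT pathway tested, 1 was higher in KO44 and 2 in KO47. This was 9.38% called, against 3.46% of all tested genes. The median difference was -0.09 against -0.01 over all tested genes. AXIN2, a negative regulator induced by the pathway, was 12.8 and 7.54 in KO44 and 15 and 6.66 in KO47, against 266 to 531 in WT, and its difference was -0.03 with an interval of -0.99 to 0.93. RNF43, which removes Frizzled from the surface, was 37.3 and 55.6 against 73.9 and 74.2, with 1082 to 2537 in WT. Its difference was -0.69, with an interval of -1.12 to -0.25 (limma adjusted p = 0.0642). MYC was 7436 and 7943 against 9927 and 9825, with 10208 to 14782 in WT. The difference was -0.36, with an interval of -0.59 to -0.13 (limma adjusted p = 0.0628). TERT, the catalytic subunit of telomerase, was 90.4 and 83.8 against 50.3 and 43.8, with 56.6 to 188 in WT. Here the difference was 0.88, with an interval of 0.34 to 1.41 (limma adjusted p = 0.0562). The intervals are not adjusted for the number of genes tested. For AXIN2 and RNF43 both clones were far below WT, and the distance between them was small beside that.

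The called members were PRDM1, MSX2 and ADAM19. MSX2, a homeobox factor, was 215 and 196 in KO44 and 535 and 615 in KO47. The WT clones were also unequal, at 2243 and 2141 in WT4 and 970 and 829 in WT6. PRDM1, a transcriptional repressor, was 24.6 and 15.1 against 108 and 99.9. ADAM19, a metalloprotease, was 249 and 138 in KO44 against 96.3 and 52.3, and its call was lost under 12 of 23 alternatives. It was 3381 and 2680 in WT4 and 857 and 511 in WT6. MSX2 and ADAM19 were also called between the WT clones, with differences of 1.29 and 2.18 (WT4 minus WT6). Of 24 WNT ligands and Frizzled receptors tested, WNT7A was higher in KO44 and WNT9A higher in KO47 (2033 and 2286 against 832 and 965). These were 8.33% of the list, against 3.46% of all tested genes. Without KO47 A the counts were 2 and 1. ASCL2 was too low to test.

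Adhesion genes that share partners with β-CATENIN gave 1 call. Of 12 catenin, cadherin and desmosome genes, DSC3 alone was called (8.33%, against 3.46% of all tested genes). DSC3 was 39.3 and 29.2 in KO44 and 377 and 575 in KO47. JUP was 9046 and 8708 against 10394 and 10459.6 (difference -0.23, adjusted p = 0.214), and CDH1, the epithelial cadherin, was 3278 and 3534 against 2805 and 3674. Among 12 mesenchymal and EMT genes, S100A4 and COL6A1 were higher in KO44 and SNAI2 higher in KO47 (25% called). COL6A1 was 3303 and 3581 in KO44 and 918 and 1021 in KO47. SNAI2, a repressor of epithelial genes, was 137 and 81 in KO44 and 389 and 327 in KO47, and lost its call without KO44 B, KO47 A or KO47 B. The members did not move in 1 direction.

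Epithelial and colonocyte genes were called at 5 of 22 tested (22.7%, against 3.46% of all tested genes), in both directions. KRT7, a keratin of simple ducts, was 10816 and 11162 in KO44 and 1729.8 and 1684 in KO47, with 268 to 714 in WT. CLDN3, a tight junction protein, was 372 and 251 against 142 and 108. CEACAM6, MUC13 and CEACAM5 were higher in KO47, but CEACAM5 lost its call without any 1 of the KO libraries. The list had 3 genes higher in KO44 and 2 in KO47 without KO47 A, and 3 and 0 when genes had to reach 10 in 4 of the 8 HCT116 libraries. MUC13, a membrane mucin, was 7.86 and 3.77 in KO44 and 108 and 110.4 in KO47. General epithelial genes such as EPCAM (19577 and 18575 against 17915 and 17839) and KRT8 (99673 and 78496 against 76666 and 73143) were not called.

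Interferon-stimulated genes were called at 8 of 27 (29.6%, against 3.46% of all tested genes), 6 of them higher in KO44. OAS1, IFIT2, IFIT3, IFIT1, DTX3L and PARP9 were higher in KO44, and IFI35 and ISG15 higher in KO47. IFIT2 was 134 and 209 in KO44 and 38.5 and 58 in KO47, with 7.62 to 57.8 in WT. ISG15, a ubiquitin-like modifier, was 1829 and 1616 in KO44 and 3858 and 3271 in KO47, with 2828 to 3819 in WT. With edgeR and with DESeq2 the counts were also 6 higher in KO44 and 2 higher in KO47. With the round as a block they were 7 and 2. They moved when libraries were left out. Without KO44 A the counts were 2 higher in KO44 and 2 higher in KO47, without KO44 B 0 and 1, without KO47 A 2 and 1, and without KO47 B 7 and 2. With the 4 KO libraries alone they were 3 and 2. Of 16 MHC class I genes PSMB9, a subunit of the immunoproteasome, was higher in KO44 (107 and 138 against 35.3 and 25.7), a call lost without KO44 B. Of 13 chemokines and cytokines IL32, LIF and CSF1 were higher in KO44, and none was higher in KO47, with a list median of 0.43. The share called was 23.1% there and 6.25% in the MHC class I list. CSF1 lost its call without any 1 of the KO libraries.

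Growth factor signalling gave calls in both directions. EGFR was 1816 and 2149 in KO44 and 729 and 1124 in KO47, and EGR1, an immediate early gene downstream of MAPK, was 119.9 and 97 against 374 and 331, the other way round. The other genes of this list of 28 were not called, and the call was lost without KO44 B for both, and for EGFR also without KO47 A. Of 29 TGF-β and BMP pathway genes, SMAD6 and GDF15 were higher in KO44 and BMP2, LTBP2, ID2 and SMAD7 in KO47. The share called was 20.7% there and 7.14% in the list with EGFR and EGR1, against 3.46% of all tested genes. BMP2, a ligand, had no read in KO44 and 20.3 and 24.7 in KO47, with 25.7 to 51.7 in WT. ID2, a BMP target, was 664 and 492 against 1349.8 and 1582. The inhibitors were split, with SMAD6 higher in KO44 and SMAD7 (28.5 and 33.9 against 70.6 and 65.7) higher in KO47, and the list median was 0.03.

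Of 18 NOTCH pathway genes, DTX4 and LFNG were higher in KO44 and the ligand DLL4 higher in KO47 (42.8 and 34.3 against 5.9 and 7.54). These were 16.7% of the list, against 3.46% of all tested genes. No YAP/TAZ target passed among 18 tested, with differences from -0.64 to 3.13. At an unadjusted p under 0.05 there were 5, by limma, while edgeR called 1 and DESeq2 0. NT5E, a member of the list that did not pass at an unadjusted p either, was 11044 and 11557 in KO44 and 11037 and 11511 in KO47, with an interval of -0.28 to 0.29, while AXL was 5228 and 5810.1 against 3101 and 3318, a difference of 0.78 (adjusted p = 0.00605) that stayed under the threshold of 1.

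Matrix, integrin and protease genes were called at 9 of 38 (23.7%, against 3.46% of all tested genes). ITGB8, THBS1, TIMP2 and COL18A1 were higher in KO44, and MMP1, TIMP3, LAMA4, ITGA2 and LAMC1 higher in KO47. ITGB8, an integrin subunit, was 341 and 575 in KO44 and 49.2 and 72.3 in KO47, and the WT clones spanned both, at 24.1 and 24.8 in WT4 and 358 and 442 in WT6. LAMC1, a laminin chain, was 5994 and 6892 against 13102 and 16914. Metalloprotease inhibitors were split, since TIMP2 was 5648 and 4762 in KO44 against 2231 and 1773, while TIMP3 was higher in KO47.

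Of 40 G1/S and replication genes CDKN2B, CDKN2A and MCM7 were higher in KO47 (7.5% called), and of 30 mitosis genes HMMR was (3.33%), against 3.46% of all tested genes. The median of the mitosis list was -0.21, and HMMR lost its call under 6 alternatives. CDKN2A, an inhibitor of the cell cycle, was 1563 and 1729 in KO44 and 3789 and 3921 in KO47, with 1575 to 2199 in WT. MCM7, a subunit of the replicative helicase, was 8347 and 8073 against 16905 and 17985, with 17105 to 19635 in WT. KO44 was thus the clone below WT for MCM7, and KO47 the clone above WT for CDKN2A. Of 29 p53 target genes PLK2 was higher in KO44 and SPATA18 and PMAIP1 in KO47 (10.3% called). CDKN1A was 4717 and 5281 against 7441 and 7906, a difference of -0.62 (adjusted p = 0.00747).

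Among metabolic lists, the share called ran from 0% for cholesterol and fatty acid synthesis to 20.7% for xenobiotic, glutathione and aldehyde metabolism. Of all tested genes 3.46% were called. ALDH1A3, an aldehyde dehydrogenase that makes retinoic acid, was 20406 and 18632 in KO44 and 3174 and 3344 in KO47, with 1196 to 1884 in WT. HMOX1, which degrades haem, was 772 and 779 in KO44 and 2222 and 1424 in KO47. Of 29 genes of xenobiotic, glutathione and aldehyde metabolism 3 were higher in each clone, and without KO47 A or without KO47 B 3 in KO44 and 1 in KO47. Of 35 hypoxia and glycolysis genes SLC2A3, ENO2 and P4HA2 were higher in KO44 (8.57%, against 3.46% of all tested genes). Without KO44 A, ENO2 and P4HA2 lost the call and the list median went from 0.14 to -0.01, and without KO47 A the counts were 3 higher in KO44 and 1 in KO47. No gene passed among 30 of cholesterol and fatty acid synthesis, where differences ran from -0.60 to 0.78, nor among 50 ribosomal protein genes, where they ran from -0.41 to 0.20, nor among 6 cancer-testis genes tested. At an unadjusted p under 0.05 limma gave 4 genes of cholesterol and fatty acid synthesis and 0 in the other lists of this kind, and edgeR and DESeq2 called 0 in each. The most abundant members were close, with RPS2 at 115278 and 111664 against 110667 and 101119 and MAGEB2 at 5757 and 5612 against 5788 and 5873. SCD, a fatty acid desaturase, was 34765 and 56469.9 against 42932 and 63307, so that the rounds differed more than the clones.

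Of 27 HOX genes HOXA3 was higher in KO47 (391 and 428 against 202 and 199.7), a call lost without any 1 of the KO libraries. Of 18 calbindin, S100 and annexin genes S100A5, CALB2, S100A3 and ANXA3 were higher in KO44 and ANXA10 in KO47. These were 27.8% of the list, against 3.7% of the HOX list and 3.46% of all tested genes. S100A5, beside S100A4 on chromosome 1, was 60.9 and 65 against 8.56 and 6.66. S100A3 was 194 and 214 against 49.2 and 53.3. Like S100A4, these genes were higher in KO44 than in KO47. S100A3 lies within the span of S100A4 on the same strand, and a part of S100A4 transcripts in its count was not tested. S100A5 was 20.9 to 70.5 in WT, a range that held both KO44 libraries and lay above both KO47 libraries. S100A6 (24371 and 22940.1 against 28698 and 19102) was not called. Without KO44 A or without KO47 B 2 genes of this list were higher in KO44 and 1 in KO47.

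Markers of blood, stromal and vascular cells were low beside those of epithelium. The sum over 12 leukocyte markers was 21.7 to 71.7 in the KO libraries, over 6 erythroid markers 0 to 10.7, and over 10 fibroblast markers 353 to 478, most of it COL1A1, beside 142040 to 202666 for 12 colorectal epithelial markers. CD3D and NKG7 were at 0 in all KO libraries. The sum was 137 to 301 over 7 measured endothelial markers, 1662 to 2972 over 8 neural markers and 7.61 to 185 over 6 hepatocyte markers. SERPINA1, a hepatocyte marker, was higher in KO44 (179 and 102 against 28.9 and 3.81), and no neural marker was called. MBP, a myelin protein gene, made up most of the neural sum, at 2511 and 2864 in KO44 and 1538 and 1771 in KO47, with 740 to 916 in WT. KO47 A had the highest sum of the KO libraries for leukocyte, fibroblast, endothelial and erythroid markers. Only 2 leukocyte, 3 fibroblast, 1 endothelial and 0 erythroid markers were high enough to be tested. None of the tested ones was called, and the others could not be. Of 12 epithelial markers 9 reached 10 in a KO library, while CDX1 was at 0.

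Along the chromosomes the clones were level. The median difference per chromosome ran from -0.05 on chromosome 16 to 0.03 on chromosome 4, and between the WT clones from -0.12 on chromosome 18 to 0.04 on chromosome 19. Medians over 25 neighbouring genes passed 0.3 in absolute value in 131 of 14911 overlapping windows, and in 65 between WT4 and WT6. The largest in absolute value was 0.501 on chromosome 19, from TRAPPC2B to ZNF8-DT, against 0.731 between WT4 and WT6. No whole chromosome was thus shifted beyond the range of the WT pair.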

How the data were processed

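RNA was prepared from clonal colorectal cancer lines, and unstranded TruSeq libraries, made by oligo-dT capture according to the study, were sequenced. Per the labels and the study's methods, the authors aligned reads to GRCh37 with STAR 2.7.5b, counted them with featureCounts 2.0.1 and normalised them with DESeq2 (2.11.40.6). The deposited values are a signal, read counts divided by the size factor of the library. Dividing by the smallest step gave whole reads for 100% of values within 0.01 reads, and 25012505 to 29068378 reads per HCT116 library. Columns of the authors' own comparisons (log2 fold changes, p-values) were not used. Symbols were matched for 95.8% of identifiers.

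The test was limma 3.58.1 on log2(value + 1) with trend and robust estimates (R 4.3.3), fitted to the 8 HCT116 libraries as 4 clones, leaving 4 residual degrees of freedom. Tested were genes that reached 10 in 2 or more of the 4 libraries compared. A gene was called at adjusted p under 0.05 and an absolute difference over 1. Fold changes are on the log2(value + 1) scale and understate those of low genes. Intervals are at 95%, and those of read ratios cover counting error only. edgeR 4.0.16 and DESeq2 1.42.0 were run on the recovered reads as alternatives, with other pseudocounts, filters, scalings and left-out libraries. The scripts were tested on simulated data. Named genes were the 15 largest called differences in each direction with a mean of at least 100 over the KO libraries, up to 4 called members per list or its most abundant members where none was called, CTNNB1, and AXIN2, ASCL2, RNF43, MYC and TERT. A gene that the rule selects is not reported here. Genes and lists were chosen with earlier results of these data known. Other genes are named as examples of counts, chosen after their values were seen.

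The rounds pair the libraries. Deviations between rounds A and B correlated between clones, at 0.380 for KO44 with KO47 and at 0.164 to 0.380 over 6 pairs of clones. With the unstranded protocol, reads of genes that overlap on opposite strands cannot be told apart, and 35 of 88 named genes share exonic bases with another listed gene.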

Additional observations from a re-analysis of the deposited data

Results flagged for a closer look

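Library KO47 A held 0.726 reads per exonic kilobase on genes that had no read in the other 7 HCT116 libraries, where the same measure was at most 0.0551. Genes with such low values were not tested unless the filter on low values was dropped, and the signal stood out because it lay above the level of the WT libraries. It amounted to 21007 reads, 0.0840% of the library. Protein-coding genes had 0.684 reads per exonic kilobase, lncRNAs 0.643 and processed pseudogenes 0.874. The X chromosome, at 0.350, lay below every autosome. The origin of these reads was not tested.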

How the results depend on the processing

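No called gene changed direction under any of 23 alternatives. The count of 540 was 549 with edgeR, 565 with DESeq2, 417 with the 4 KO libraries alone and 705 of 38302 genes without the filter on low values. With the round as replicate block, limma called 765 genes (407 higher in KO44, 358 higher in KO47) and edgeR 763 (414 and 349), and the WT comparison rose from 230 to 438 with limma and 435 with edgeR. Leaving out 1 library gave 355 to 671 calls, 142 to 394 higher in KO44 and 193 to 277 higher in KO47, and 91 to 275 between the WT clones. The lone library of a clone was then assumed to vary like the others. The largest chromosome median, 0.0488 in absolute value, was 0.0729 among genes of at least 100 in each KO library and 0.101 in round B alone. The reads on silent genes in KO47 A were 0.698 per exonic kilobase when all other 23 libraries defined silence, an alternative chosen after seeing the data. The cause was not tested. Of 75 named genes that were called, 51 kept the call under every alternative that gave them a value (21 to 23 of the 23) and 24 lost it under at least 1 (ADAM19, AKR1C1, C11orf86, CALB2, CEACAM5, CSF1, CYP24A1, EGFR, EGR1, ENO2, HMMR, HOXA3, IFIT2, IFIT3, LAMA4, LTBP2, MUC13, OAS1, P4HA2, PSMB9, SNAI2, SULT2B1, SYTL5 and TM4SF18). Among the 30 largest differences, TM4SF18, C11orf86 and SYTL5 lost it. CTNNB1 was not called under any of the 23, with differences of -0.32 to -0.02. Genes with few reads in KO47 are limited by the low reads of library A.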

Other observations

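Replication-dependent histone genes, which supply chromatin during DNA replication, were higher in KO47 at 8 of 21 tested and higher in KO44 at none (38.1% called, against 3.46% of all tested genes), with a median difference of -0.99. The group was chosen after its values were seen. The libraries were made by oligo-dT capture, which selects transcripts with a poly(A) tail, so the counts may not cover all transcripts of these genes. A difference in replication was not tested. H1-2, a linker histone, was 173 and 184 in KO44 and 969 and 828 in KO47, and the WT clones were also unequal, at 649 and 832 in WT4 and 143 and 242 in WT6. H2BC12 was 156 and 142 against 456 and 611, with 617 and 779 in WT4 and 243 and 238 in WT6. For H1-2 and H2BC12, KO44 was thus near or below WT6, and KO47 nearer to WT4. KO47 was also nearer to WT4 for H4C9, H2BC5 and H2BC21, with means of 208, 242 and 94.1. The means were 259, 325 and 83.1 in WT4 and 100, 83.3 and 32.8 in WT6. H2AC6 in KO47 (mean 329) lay between WT4 (652) and WT6 (135). Other called members differed. H2AC25 was 364 and 305 in KO47, nearer to WT6 (274 and 277) than to WT4 (635 and 601). H3C10 in KO47 was also nearer to WT6. All 8 called members were also called between the WT clones, higher in WT4.

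In 9 stretches at least 4 of 10 neighbouring tested genes were called, against 3.46% of all tested genes. The stretches were also noted after seeing the data, and in 3 of them all calls had 1 direction. No such count is given for WT4 against WT6, and whether 9 is more than scattered calls would give was not tested. The other stretches were mixed, such as TIMP3 to APOL6 on chromosome 22, with 3 higher in KO44 and 2 in KO47, and PRKCQ to SFMBT2 on chromosome 10, with 1 and 3. On chromosome 12, KRT80, KRT7, KRT87P and KRT81 were all higher in KO44, with KRT80 at 2217 and 3036 against 437 and 715. KRT80 and KRT81 were also called between the WT clones, both higher in WT6 (WT4 minus WT6 -1.97 and -1.68). On chromosome 1, TTLL7, PRKACB, SAMD13 and GNG5 were all higher in KO47, and PRKACB, a catalytic subunit of protein kinase A, was 834 and 912 against 3743 and 5529. On chromosome 5, ATG12, AP3S1, ARL14EPL and SEMA6A were all higher in KO47, with ATG12, an autophagy gene, at 1774 and 2362 against 7890.1 and 9846. ATG12, ARL14EPL and SEMA6A were also called between the WT clones, all higher in WT6 (WT4 minus WT6 -1.03, -1.72 and -1.19). ATG12 was 4155 and 4536 in WT4 and 9734 and 8029 in WT6. At the imprinted end of chromosome 14, DIO3 and DIO3OS (20.3 and 22.8 against 0.983 and 2.83 in KO44) were higher in KO47, and RTL1 was 1.97 and 0.942 in KO44 against 23.5 and 16.2 without passing the test (adjusted p = 0.0643).

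Of the 540 genes called between the KO clones, 61 were also called between WT4 and WT6, which is 11.3% of the former and 26.5% of the latter. The 11.3% stands against 1.48% of all genes tested for WT4 against WT6. The 26.5% stands against 3.46% of all genes tested for KO44 against KO47. In all, 15001 genes were tested in both comparisons. Whether 61 is more than unrelated calls would share was not tested. KO44 and WT4 lay on the same side at 40 of the 61 genes and on opposite sides at 21. The fits share their estimate of the spread.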
